A study of Mus musculus with 60 samples.

Results

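Untreated mouse embryonic stem cells (ESCs) of 2 abnormal karyotypes were compared, one with 3 copies of the whole of chromosome 8 and one with an unbalanced translocation between the X and chromosome 8, t(X;8). The trisomy 8 side holds label clones 228, 273 and 38 and the translocation side label clones 85, 86, 109, 190, 203b and 339. Each clone has 2 libraries without doxycycline, which makes 18 of the 60 libraries of the series, 6 with trisomy 8 and 12 with the translocation. All 9 clones derive from the F1 2-1 female line, a hybrid of a 129/Sv and a Cast/Ei mouse that has 1 homologue of each pair from either strain, and all carry the M2rtTA transactivator at the ROSA26 locus of the 129 allele of chromosome 6 and a doxycycline-inducible Xist transgene made from Cast/Ei DNA. The transgene lies on chromosome 12 in the trisomy 8 clones, on the Cast X in clones 85, 86, 109 and 190, and on the 129 translocation product in clones 203b and 339. Cells were grown in 2i + LIF, and the transgene was not induced in the libraries compared. Every clone of a side goes back to 1 parental line, described as carrying a duplicated chromosome 12 for the trisomy 8 clones and t(X;8) for the others. Parental line, transgene position and karyotype therefore cannot be told apart, and a p-value over clones measures the spread between clones of these lines only.

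A gain of chromosome 8 is among the most frequent changes of mouse ESCs in culture, and cells that carry it can overgrow a culture. An extra copy of an autosome raises the template of all its genes at once. Female ESCs keep both X chromosomes active until they differentiate, so loss of part of one X removes an active copy. In this pair of karyotypes, the part of chromosome 8 proximal to chr8:70132278 is expected in 3 copies in one line and 2 in the other, and the part of the X distal to chrX:149166495 in 2 copies against 1 (mm10). The rest of chromosome 8 is in 3 copies in both. The boundaries had been set from the allelic ratios of translocation clones, so the place of the step in that ratio is a description. The total reads were not used to set it, but they come from the same libraries and are not independent of it.

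The 18 libraries held between 2284822 and 8518122 HTSeq reads over listed genes and between 731374 and 2365335 allele-specific reads. Genes with fewer than 8 allele-specific reads are missing from a library's table, and 5081 genes were listed in all 18. Replicate 2 of clone 38 stood apart, and the 2 libraries of that clone differed more from each other (chi-square per degree of freedom 122.7) than those of any other clone (1.82 to 19.4). Over the genes used for scaling, the interquartile range of the log2 difference from the translocation libraries was 0.91 in this library and 0.57 in replicate 1 of clone 38, against 0.41 to 0.60 in clones 228 and 273 and 0.19 to 0.61 in the translocation libraries, where replicate 2 of clone 109 was the widest. In 3 libraries, replicate 1 of clones 273 and 339 and replicate 2 of clone 38, HTSeq reads were 3.36 to 3.70 times the allele-specific reads, against 2.98 to 3.14 in the other 15, and the part of this in the results was not tested beyond the values given without them. ESC identity was checked on 23 pluripotency genes, of which 20 were listed in every library. Their summed level was 11572 to 21103 CPM (reads of a gene relative to the scaled library size) in trisomy 8 libraries and 12198 to 17339 in translocation libraries. Of 18 fibroblast and feeder markers, 6 were listed in any library and 4 in all, and the collagen genes Col1a1, Col1a2 and Col3a1 in none. The summed level of the listed markers was 1340 to 2481 CPM in trisomy 8 libraries and 1382 to 2455 in translocation libraries.

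The Cast/all ratio is the share of Cast reads among the allele-specific reads of a gene, and it separated the sides in every library. Trisomy 8 is not part of the description of the parental line, and clones were placed on a side with these ratios known. Clone 160, of the same described line as the trisomy 8 clones, was left out because its ratios differed. The separation by ratio thus describes how the sides were formed and cannot test the karyotype. Over chromosome 8 proximal to the boundary its median over genes was between 0.667 and 0.682 in the 6 trisomy 8 libraries and between 0.489 and 0.517 in the 12 translocation libraries. Distal to the boundary it was 0.656 to 0.669 and 0.652 to 0.671. A ratio of 2 Cast copies to 1 of 129 thus covered the whole chromosome in clones 228, 273 and 38 and the distal part alone in the others. On the distal X the ratio was 0.478 to 0.511 with trisomy 8 and 1.00 in every translocation library, so the X segment that was missing was that of 129. On the proximal X both sides lay between 0.479 and 0.505. Gene by gene, all 113 tested genes of proximal chromosome 8 had a higher median ratio with trisomy 8, by 0.0071 to 0.252 (median 0.163). The smallest shift was that of 6820431F20Rik, at 0.979 against 0.972. Over the 222 distal genes the median shift was -0.0016.

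**Figure D1:**
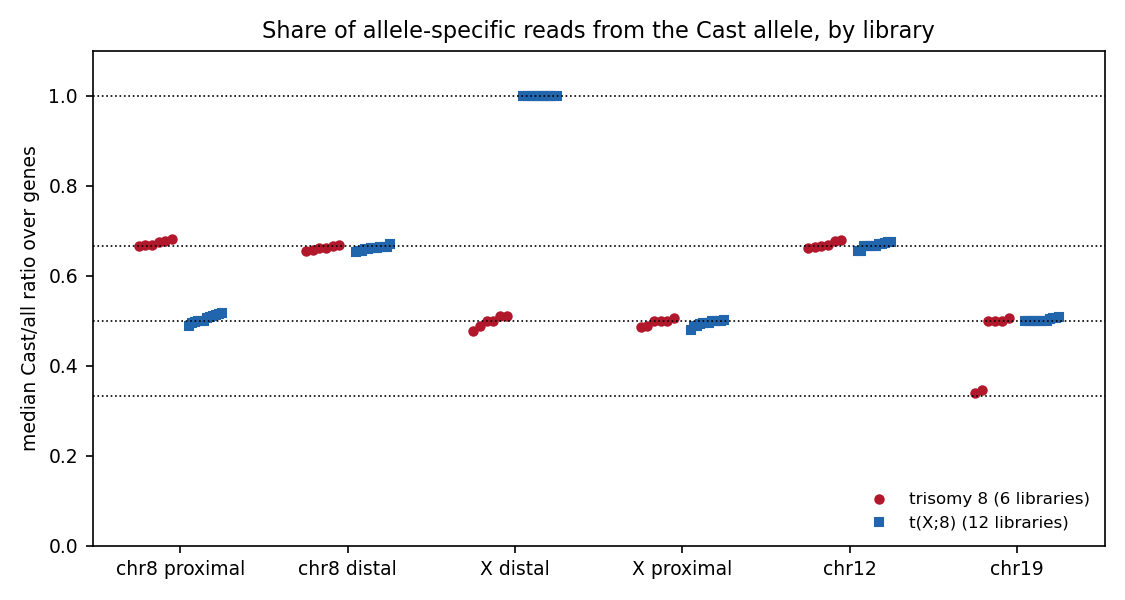
Median Cast/all ratio over genes (vertical axis, 0 to 1) of each region (horizontal axis), with 1 point per library, circles for the 6 trisomy 8 libraries and squares for the 12 translocation libraries. Dotted lines mark the Cast shares given by 1 of 3, 1 of 2, 2 of 3 and all copies, and the groups separate on proximal chromosome 8 (0.667 to 0.682 against 0.489 to 0.517) and on the distal X. Clones were placed in the groups with these ratios known.

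Chromosomes 12 and 19 were looked at apart. On chromosome 12 the ratio was 0.661 to 0.680 with trisomy 8 and 0.656 to 0.675 with the translocation, so an excess of Cast was present on both sides and the total reads of its 220 genes did not separate them (log2 difference -0.026 ± 0.055, SE, 3 against 6 clones, exact permutation p = 0.631). On chromosome 19 the ratio was 0.340 and 0.345 in the 2 libraries of clone 38 and 0.50 to 0.509 in the other 16. Chromosome 19 was also 0.65 above the translocation mean on the log2 scale in clone 38, while clones 228 and 273 were at 0.021 and 0.024. Clone 38 thus differed from clones 228 and 273 by an excess of 129 reads on chromosome 19, and neither chromosome entered the scaling.

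Total expression followed the allelic ratios. For each clone, reads of its 2 libraries were summed, scaled to the autosomes other than 8, 12 and 19, and summarised by the median over genes of a region. On proximal chromosome 8 (113 genes) the trisomy 8 clones lay at 0.48 (clone 228), 0.49 (clone 273) and 0.50 (clone 38) above the translocation mean on the log2 scale, whereas the 6 translocation clones lay between -0.031 and 0.034. The difference was 0.49 ± 0.012 (SE, n = 3 and 6 clones), a 1.41-fold level, against 1.5-fold for 3 copies over 2. The exact two-sided permutation test of clone labels gave p = 0.0119, the smallest that 84 assignments allow. Clones were placed on a side with the allelic ratios of this region and the distal X known, from the same libraries. For both regions the p therefore describes the separation of the sides and is not an independent test of karyotype. On distal chromosome 8 (222 genes) the difference was 0.021 ± 0.046 (exact permutation p = 0.774). The distal X (26 genes) was 2.01-fold higher with trisomy 8, with clones at 1.02, 1.13 and 0.87 against -0.077 to 0.038 (log2 difference 1.00 ± 0.077, exact permutation p = 0.0119). The proximal X (142 genes) differed by -0.069 ± 0.11 (exact permutation p = 0.488), with clone 38 at -0.27 and the other 2 trisomy 8 clones at 0.042 and 0.023. With 22 regions tested, p = 0.131 was the adjusted value of proximal chromosome 8 and the distal X, and 2 regions at the smallest exact permutation p cannot go lower. The difference on proximal chromosome 8 was 0.50 without the 3 libraries with many HTSeq reads per allele-specific read and 0.49 without clones 38 and 109.

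**Figure D2:**
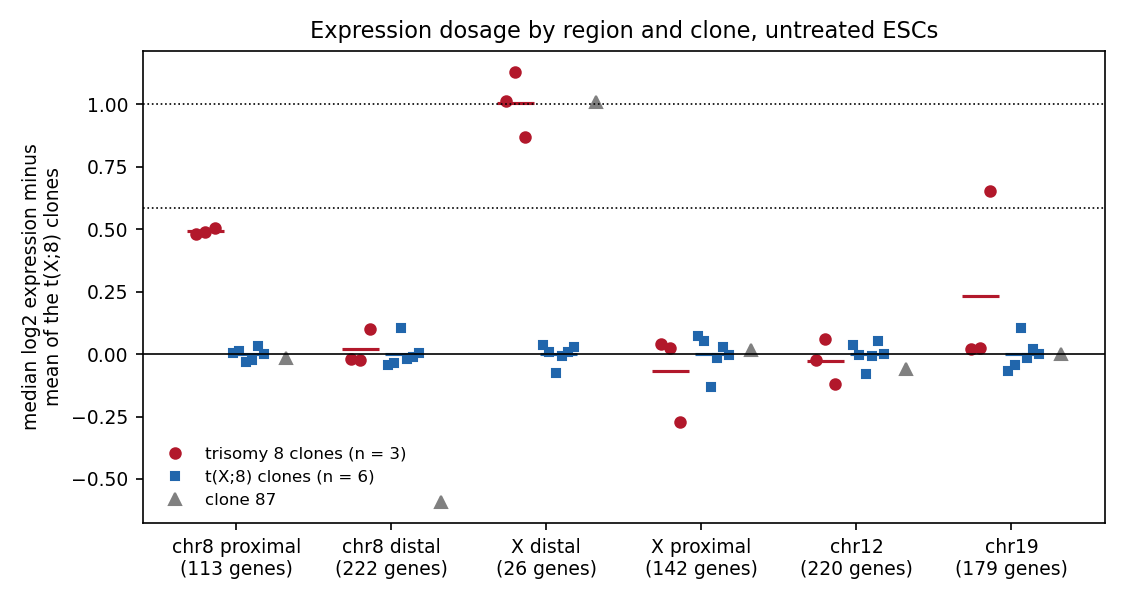
Median log2 expression over genes minus the mean of the translocation clones (vertical axis) for 6 regions (horizontal axis). Circles are trisomy 8 clones, squares translocation clones, triangles clone 87, short lines group means, and dotted lines mark 3 copies over 2 (0.585) and 2 over 1. The trisomy 8 clones sit at 0.48 to 0.50 on proximal chromosome 8 and 0.87 to 1.13 on the distal X.

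Clone 87, whose transgene was targeted into the endogenous Xist locus of a wild-type line, gave a reference outside both sides. In its 2 untreated libraries the Cast/all ratio was 0.494 and 0.506 on proximal and 0.495 and 0.489 on distal chromosome 8. Its distal chromosome 8 was at a log2 value of -0.59 against the translocation clones, and its distal X at 1.01. Against clone 87, the trisomy 8 clones were higher by 0.48 on proximal and by 0.61 on distal chromosome 8, again on the log2 scale. Clone 87 is 1 clone, so no test was made, and its chromosome 12 ratio of 0.674 and 0.684 was like that of the other clones.

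The allele-specific reads describe which allele gave the difference. They are the parts of the ratios that were known when clones were placed on a side. Their separation is therefore a description and cannot test the karyotype. Cast reads of proximal chromosome 8 genes were 1.93-fold higher in trisomy 8 clones (log2 difference 0.94 ± 0.014, SE, 3 against 6 clones), with clones at 0.93 to 0.96 against -0.023 to 0.047. Reads of the 129 allele differed by -0.065 ± 0.017, with clones at -0.073 to -0.049 against -0.044 to 0.065. On distal chromosome 8 the difference was 0.018 ± 0.053 for Cast and -0.00075 ± 0.054 for 129. For the distal X, Cast output differed by 0.012 ± 0.14 between sides, and the 129 allele had 16585 reads in the 3 trisomy 8 clones against 707 in the 6 translocation clones, which had 32523 Cast reads there. The output of the Cast copy of the distal X thus did not differ beyond the spread of clones between cells with and without a 129 copy.

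The step was sharp along the chromosome. In 10-Mb bins from the boundary towards the centromere, the medians of the 3 trisomy 8 clones were between 0.23 and 0.76 in all 7 bins. In the 6 bins beyond the boundary they were between -0.18 and 0.22. The translocation clones spanned -0.33 to 0.15 in the proximal bins and -0.096 to 0.21 in the distal ones. Clone 38 was at 0.23 in the bins from -30 to -10 Mb and at 0.22 in the first bin beyond the boundary. The 3 tested genes nearest to the boundary on its proximal side, Sugp1, Mau2 and Gatad2a, lie at -0.075, -0.104 and -0.181 Mb and differed by 0.32, 0.50 and 0.40. Their Cast/all ratio was 0.667, 0.645 and 0.659 with trisomy 8 and 0.494, 0.457 and 0.491 with the translocation. On the distal side Nr2c2ap, Rfxank and Tmem161a differed by -0.05, -0.12 and 0.38, with ratios of 0.469, 0.552 and 0.652 against 0.555, 0.622 and 0.598. On the X the nearest tested genes leave a gap. Acsl4, Tmem164 and Alg13, at -6.81 to -4.82 Mb from the boundary, had ratios of 0.512, 0.433 and 0.429 against 0.540, 0.420 and 0.403. Maged2, Gnl3l and Fgd1, 1.64 to 1.90 Mb beyond it, had ratios of 0.532, 0.573 and 0.479 against 1.00, 0.991 and 1.00.

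**Figure D3:**
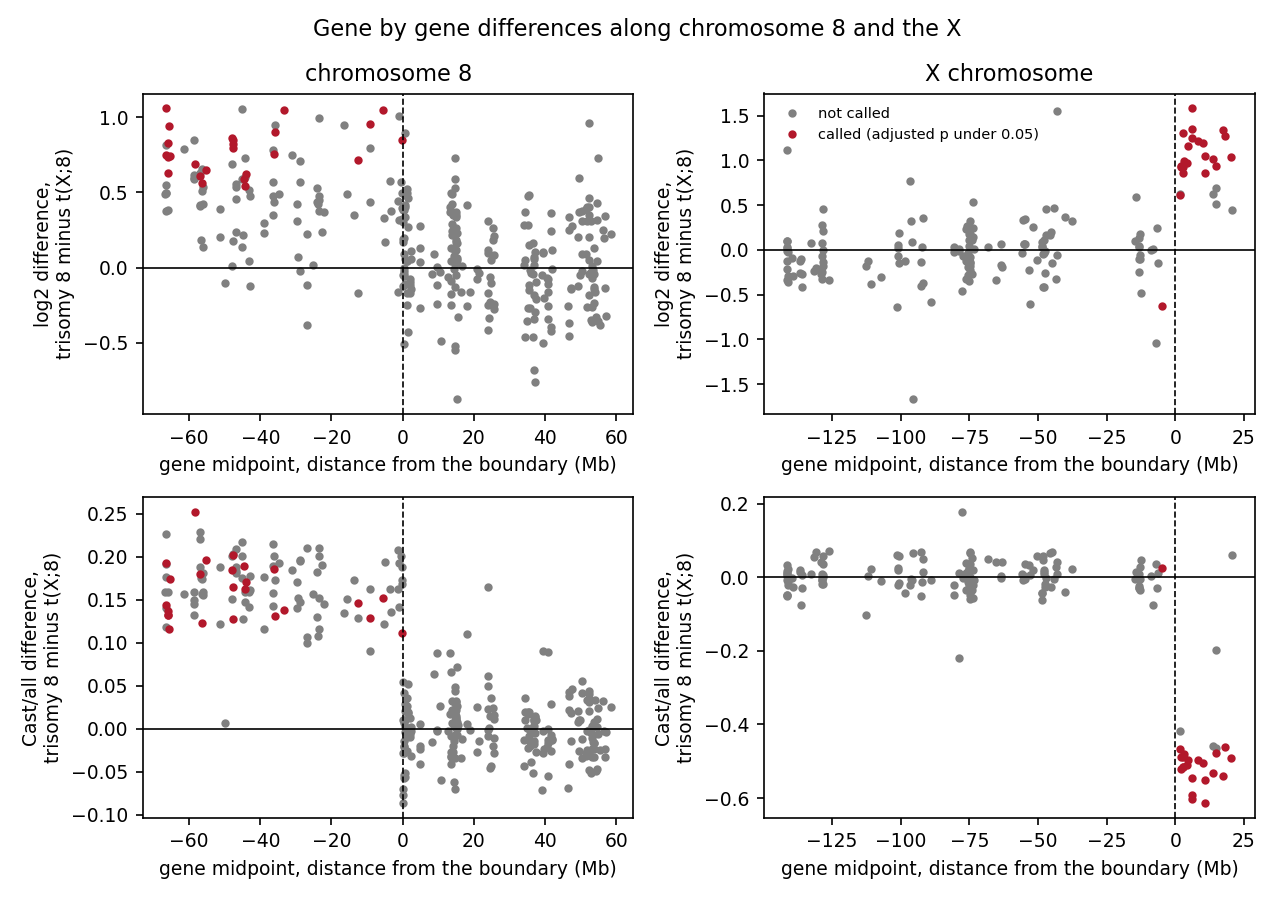
Each point is a tested gene, placed by the distance of its midpoint from the boundary in Mb (horizontal axes; dashed line, the boundary), with the log2 difference in expression (upper panels) and the difference in Cast/all ratio (lower panels), trisomy 8 minus translocation. Red points were called. The median ratio shift was 0.163 on proximal and -0.0016 on distal chromosome 8.

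Single genes were tested with the quasi-likelihood test of edgeR on the summed reads of the 9 clones, over 5040 genes with a mean of at least 20 reads per library, and called at an adjusted p under 0.05. Over all genes, 1.27% were called higher and 0.298% lower with trisomy 8, and 895 of the 5040 had an unadjusted p under 0.05. On proximal chromosome 8, 25 of 113 genes (22.1%) were called higher and 0 lower, and 106 had a positive log2 difference. The median was 0.51, with quartiles of 0.35 and 0.72, and 82 genes had an unadjusted p under 0.05. On the distal X, 21 of 26 genes were called higher and 0 lower, with a median of 0.98. On distal chromosome 8, 0 of 222 were called in either direction by edgeR, with 38 at an unadjusted p under 0.05. DESeq2 called 3 higher and 6 lower there, against 3.51% higher and 2.26% lower of all genes tested with DESeq2. Without clone 38, edgeR called 9 higher and 6 lower of 224. Clones of the 2 sides did not overlap for 50 of the 113 proximal genes, all higher, and for 23 of the 26 distal X genes, against 4.88% higher and 3.75% lower over all genes tested. The count on proximal chromosome 8 moved with single clones. It was 43 without clone 38, 14 without 85, 12 without 273 or without replicate 2 of clone 38, 11 without 228, 10 without 339, 9 without 86, and 5 without 190 or 203b. Without clone 38, 4.97% of all genes tested were called higher and 2.86% lower.

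**Figure D4:**
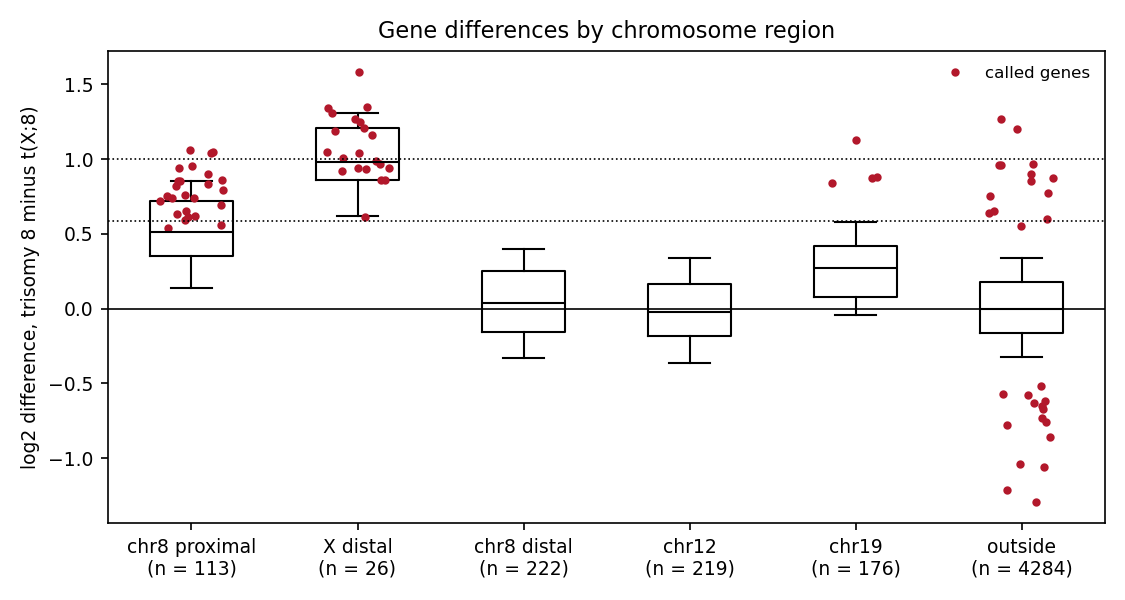
Log2 difference of each tested gene, trisomy 8 minus translocation (vertical axis), by region (horizontal axis). Boxes span the quartiles with the median as a line, whiskers the 10th to 90th percentile, and red points are called genes. The median was 0.51 on proximal chromosome 8, 0.98 on the distal X and 0.00 outside the regions.

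Among the called genes of proximal chromosome 8, 5 had the largest difference. Trappc5, a subunit of the TRAPP vesicle-tethering complexes, was at 33.4, 50.9 and 64.0 CPM in clones 228, 273 and 38 and at 15.6 to 30.7 (median 24.3) in the translocation clones (log2 difference 1.06 ± 0.23, SE, edgeR adjusted p = 0.0465). Dlc1, a GTPase-activating protein, was at 207, 282 and 222 CPM against 67.9 to 143 (median 121), a difference of 1.05 ± 0.20 (adjusted p = 0.031). Both genes were higher in all 3 trisomy 8 clones. Msmo1, an oxidase of sterol synthesis, was at 669, 610 and 337 CPM against 204 to 319 (median 256), a difference of 1.04 ± 0.22 (adjusted p = 0.046). Its level in clone 38 was close to the highest translocation clone. Reads of 2700029M09Rik were 217, 248 and 187 CPM against 108 to 119 (0.95 ± 0.11, adjusted p = 0.0027), and Cers4, a ceramide synthase, was at 75.7, 64.2 and 91.2 CPM against 35.2 to 43.1 (0.94 ± 0.13, adjusted p = 0.00615). The differences of these 5 genes lay above the step of 0.585 that 3 copies over 2 give, which their choice by size favours.

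At the other end, the 5 lowest of the 113 genes were Triml1, Galnt7, Lpl, Got1l1 and Triml2, with log2 differences of -0.38, -0.16, -0.16, -0.12 and -0.12. None was called, and the lowest edgeR adjusted p among them was 0.31. Triml1, of a family related to tripartite motif proteins, was at 42.1, 60.5 and 62.1 CPM in trisomy 8 clones and 53.6 to 86.9 in translocation clones, while its Cast/all ratio was 0.214 against 0.114. Lpl, lipoprotein lipase, was at 142, 79.7 and 79.6 CPM against 42.4 to 161, with a ratio of 0.543 against 0.380. Each of the 5 had the higher Cast share that marks the extra copy, without a higher total.

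Members of proximal chromosome 8 were grouped by role. Over the region edgeR called 22.1% of the 113 tested genes higher, against 1.27% of all genes tested. Whether a role differs from the region was not tested. Of 15 growth factor signalling genes 4 were tested and 2 called higher, with a median of 0.53. Fgfr1, a receptor for fibroblast growth factors, was at 179, 164 and 154 CPM against 102 to 115 (median 112), a difference of 0.59 ± 0.11 (edgeR adjusted p = 0.0219). The groups did not overlap. Arhgef7, a guanine nucleotide exchange factor, was at 80.0, 85.2 and 94.4 CPM against 49.7 to 60.2 (0.69 ± 0.12, adjusted p = 0.0152). The translational repressor Eif4ebp1 differed by 0.48 and the Wnt antagonist Sfrp1 by 0.24, neither called.

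Chromatin and transcription genes numbered 20, with 13 tested, 2 called higher and a median of 0.44. Ash2l, a core subunit of the histone H3 lysine 4 methyltransferase complexes, was at 1010, 1027 and 860 CPM against 598 to 774 (median 660), a difference of 0.54 ± 0.12 (edgeR adjusted p = 0.0467). Hmgb2, a DNA-bending protein of dividing cells, was at 2174, 2703 and 2167 CPM against 1156 to 1843 (0.72 ± 0.15, adjusted p = 0.0465). Zfp42, the pluripotency marker also called Rex1, had overlapping groups, at 293, 820 and 1020 CPM against 294 to 911 (0.22 ± 0.40), with clone 228 lowest. Its Cast/all ratio was 0.646 against 0.436. Ing1, Gatad2a, Cnot7 and Tfdp1 differed by 0.85, 0.40, 0.31 and 0.19, without a call. Rfxank, placed in this list, has its midpoint just beyond the boundary.

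Of 14 DNA repair and replication genes 8 were tested and 0 called by edgeR, all with a positive difference and a median of 0.44. At an unadjusted p under 0.05 there were 6, against 82 of the 113 genes of the region. DESeq2 called 2 higher, against 45.1% of the region. Without clone 38 edgeR called 1 higher, against 38.1% of the region. All 20 metabolism and organelle genes were tested, 5 were called higher and the median was 0.53. Besides Msmo1 these were Ndufa13 of respiratory complex I (0.85), the mitochondrial ribosomal protein gene Mrps31 (0.85), the ornithine carrier Slc25a15 (0.82) and the mitochondrial outer membrane channel Vdac3 (0.79). Vdac3 was at 428, 465 and 367 CPM against 235 to 254, a narrow range over 6 clones (edgeR adjusted p = 0.00501). Ndufa13, at -0.234 Mb from the boundary, was at 189, 190 and 275 CPM against 103 to 138. The ADP/ATP carrier Slc25a4 and the lysosomal membrane protein Lamp1 differed by 0.43 and 0.42, with overlapping groups.

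On the distal X the called genes with the largest difference were Prdx4, Sat1, Rab9, Hsd17b10 and Prps2. Prdx4, a peroxiredoxin of the endoplasmic reticulum, was at 315, 297 and 170 CPM in trisomy 8 clones against 73.2 to 117 (median 79.6), a difference of 1.58 ± 0.21 (edgeR adjusted p = 0.00493). Sat1, which acetylates spermidine and spermine, was at 337, 270 and 226 CPM against 88.7 to 134 (1.35 ± 0.16, adjusted p = 0.0027). Both differences lay above the step of 1 that 2 copies over 1 give, which their choice by size favours. Clone 38 was the lowest of the trisomy 8 clones in both. Rab9, a GTPase of late endosomes, was at 239, 189 and 155 CPM against 69.8 to 87.5 (1.34 ± 0.14), and Hsd17b10, a mitochondrial dehydrogenase, at 215, 196 and 186 CPM against 76.6 to 88.1 (1.31 ± 0.10, adjusted p = 0.000381). Prps2, a phosphoribosyl pyrophosphate synthetase, differed by 1.27 ± 0.26. The 5 lowest were G530011O06Rik, Ap1s2, Maged2, Txlng and Gnl3l, at 0.44, 0.52, 0.61, 0.62 and 0.63, of which Maged2 was called. G530011O06Rik, at 27.3, 14.1 and 38.8 CPM against 6.59 to 47.8, was the 1 distal X gene whose Cast/all ratio was not lower with trisomy 8 (0.721 against 0.659).

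Over the distal X, 80.8% of the 26 tested genes were called higher. By role, 2 of 8 chromatin genes there were tested and both were called. Kdm5c, a histone H3 lysine 4 demethylase that escapes X inactivation, was at 481, 421 and 397 CPM against 191 to 260 (0.99 ± 0.12, edgeR adjusted p = 0.0027). Smc1a, a core subunit of cohesin, was at 626, 676 and 489 CPM against 290 to 353 (0.86 ± 0.12). In translation and protein turnover, 4 of 5 tested genes were called, with a median of 0.93, led by the initiation factor Eif1ax at 588, 694 and 502 CPM against 236 to 299 (1.19 ± 0.13). The ubiquitin ligase Huwe1 differed by 0.93 ± 0.14. All 6 tested of 12 metabolism genes were called (median 1.13), among them Pdha1, the E1 alpha subunit of pyruvate dehydrogenase, at 696, 842 and 653 CPM against 334 to 382 (1.05 ± 0.11), and the spermine synthase Sms (1.21). Of 15 signalling and trafficking genes 5 were tested and 3 called, Rab9, Fgd1 and Maged2, with a median of 0.62.

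Outside the regions, that is, on the proximal X and all autosomes other than 8, 12 and 19, 4284 genes were tested. Of these, 14 were called higher (0.327%) and 15 lower (0.350%), with a median of 0.00 and quartiles of -0.16 and 0.18. At an unadjusted p under 0.05 there were 661, against 895 of all 5040 genes tested. The counts called higher and lower depended on clone 38. Without it, 161 were higher and 123 lower, all 29 genes called with it among them. Without clone 109 the counts were 63 and 40. They fell to 9 and 3 without 85, 7 and 4 without 228 or 273, 7 and 3 without 86 or 339, 4 and 2 without 203b, and 3 and 1 without 190. Among single libraries, the counts were 48 and 34 without replicate 1 of clone 38, 37 and 23 without replicate 2 of clone 109, 7 lower without replicate 1 of clone 109, 8 lower without replicate 1 of clone 228, and 6 higher without replicate 2 of clone 38. All 29 kept their sign in each of these fits. Without the 3 libraries with many HTSeq reads per allele-specific read, 6 were higher and 9 lower, 8 of the 29 among them.

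The 10 higher genes with the largest difference were Cyp2e1, Rsrp1, Tyr, Gatsl3, Ptrf, Nenf, Pgp, Mdk, Rps15a-ps4 and Thumpd3. Cyp2e1, a cytochrome P450, was at 50.7, 43.8 and 33.7 CPM against 14.7 to 21.3 (median 17.3), a difference of 1.27 ± 0.17 (edgeR adjusted p = 0.00521). Rsrp1 was at 343, 186 and 289 CPM against 87.5 to 181 (1.20 ± 0.25, adjusted p = 0.0421). Separate groups were a condition for naming a gene here, and for Rsrp1 it was met only narrowly. Gatsl3, also called Castor1, an arginine sensor of the mTORC1 pathway, was at 68.5, 64.9 and 45.6 CPM against 23.4 to 33.7 (0.96 ± 0.16). Ptrf, or cavin 1 of caveolae, was at 60.1, 63.4 and 74.7 CPM against 29.5 to 41.1 (0.96 ± 0.14), and Mdk, the growth factor midkine, at 690, 488 and 407 CPM against 231 to 334 (0.85 ± 0.18). The remaining differences were 0.97 for the melanin enzyme tyrosinase, Tyr, 0.90 for Nenf, 0.87 for the phosphatase Pgp, 0.77 for Rps15a-ps4 and 0.75 for Thumpd3. Rps15a-ps4 is a pseudogene whose reads may be shared with its parent gene, so its value is uncertain.

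Among the lower genes, Mme, the cell surface peptidase neprilysin, was at 165, 314 and 231 CPM against 426 to 726 (median 576), a difference of -1.29 ± 0.22 (edgeR adjusted p = 0.0168). Klhl22, an adaptor of CUL3 ubiquitin ligases, was at 31.7, 43.5 and 58.3 CPM against 87.3 to 122 (-1.21 ± 0.20, adjusted p = 0.0136). Mmrn2, an extracellular matrix protein of endothelium, was at 42.2, 38.2 and 63.0 CPM against 68.5 to 120 (-1.06 ± 0.21). All 3 were lower in each trisomy 8 clone than in any translocation clone, which the choice of genes required. Ivns1abp was at 116, 222 and 200 CPM against 311 to 450 (-1.04 ± 0.22), and H3f3b, which encodes histone H3.3, at 523, 560 and 742 CPM against 869 to 1199 (-0.76 ± 0.15, adjusted p = 0.0351). The deubiquitinase Usp46 and Mpzl2, Fam169b, Zfand2a and Nkain1 differed by -0.86, -0.78, -0.73, -0.67 and -0.65. On the proximal X, which belongs to the genes outside the regions, 1 of 142 genes was called. This is 0.704% called lower, against 0.298% over all genes tested. Without clone 38, 10 of 144 were called higher (6.94%) and 2 lower (1.39%), against 4.97% and 2.86% over all genes tested. Whether the proximal X differs from all genes in these shares was not tested. The called gene, 1 of the 15 lower, was Alg13, of protein N-glycosylation. It was at 378, 395 and 369 CPM against 537 to 675 (-0.63 ± 0.11, adjusted p = 0.019). On chromosome 19, A330032B11Rik, Vegfb, Avpi1 and Pgam1 were called higher and were picked out here after their values were seen. They are 2.27% of the 176 genes tested there, against 1.27% called higher over all genes tested. Without clone 38 the 4 remained higher, with edgeR adjusted p between 0.00889 and 0.0439. That fit called 6 of 175 chromosome 19 genes higher (3.43%) and 5 lower (2.86%), against 4.97% and 2.86% over all genes tested.

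**Figure D5:**
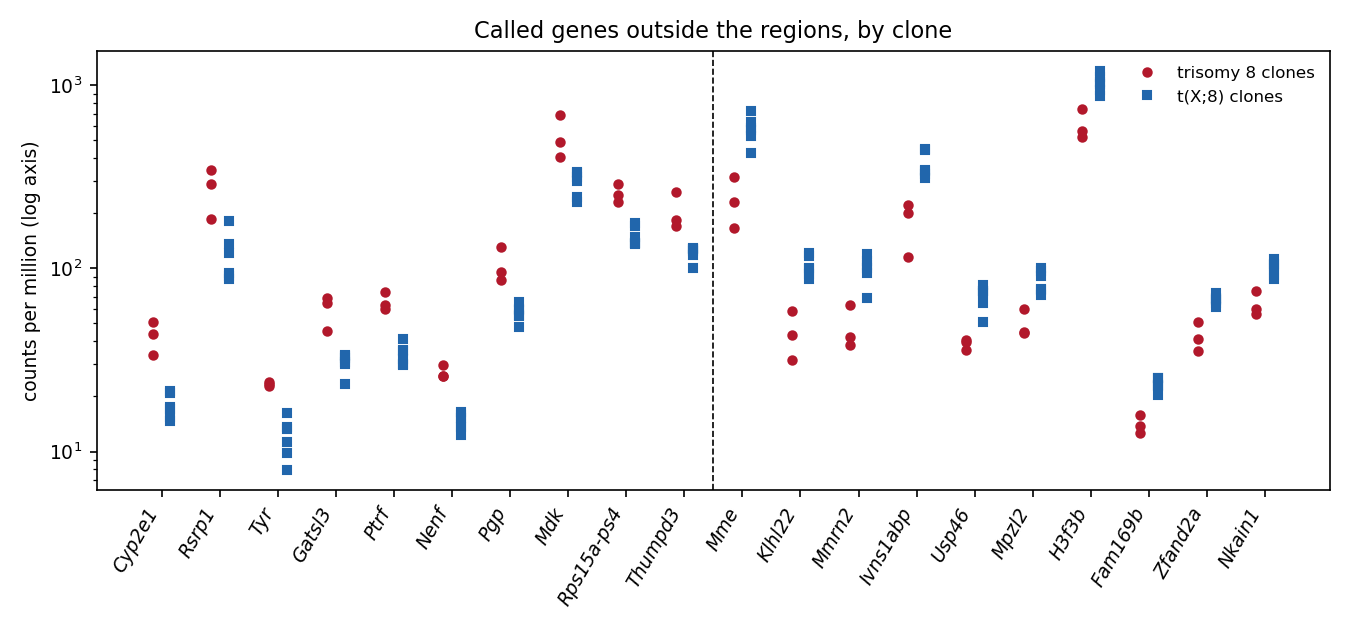
CPM (vertical axis, log scale) of the 10 higher and, right of the dashed line, the 10 lower genes outside the regions with the largest difference, with 1 point per clone, circles for trisomy 8 and squares for the translocation. The clones of the 2 sides do not overlap, which the choice of genes required.

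The doxycycline-treated libraries of the same 9 clones are other cells of the same lines. They carry induced Xist on chromosome 12, on the Cast X or on the translocation product. Values of chromosome 12, the X and distal chromosome 8 therefore mix karyotype and silencing. In them 1.52% of all genes tested were called higher and 0.447% lower, and the difference on proximal chromosome 8 was 0.54. Of the 29 genes called outside the regions 28 were tested there, 25 had the same sign and 6 were called again, Cyp2e1, Rsrp1 and Gatsl3 higher and Klhl22, Mmrn2 and Ivns1abp lower. Ptrf was at -0.67, Nkain1 at 0.16 and Spp1 at 0.16 on the log2 scale, the opposite of their untreated direction.

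Gene lists not chosen for their chromosome were described by counts and medians. Over all 5040 genes tested, 895 had an unadjusted p under 0.05, and DESeq2 called 3.51% higher and 2.26% lower. Genes of these lists given with values below were picked after the values were seen, other than those called in all 9 clones. Of 20 tested pluripotency genes 0 were called by edgeR in all 9 clones (median -0.18), 7 had an unadjusted p under 0.05, and DESeq2 called 2 lower. The difference was positive for 7. Klf4 was at 63.9, 145 and 223 CPM against 210 to 402, Tfcp2l1 at 302, 279 and 592 CPM against 517 to 984, and Nanog at 434, 925 and 552 CPM against 734 to 1520, so groups overlapped in each. On the other side, Pou5f1, which encodes the core factor Oct4, was at 2523, 2239 and 3151 CPM against 1739 to 2435 (0.39), and the RNA-binding protein gene Lin28a at 156, 168 and 104 CPM against 54.8 to 154 (0.76), again with overlap. Without clone 38, a fit in which 4.97% of all genes were called higher and 2.86% lower, Klf4 (-1.46), Tfcp2l1 (-1.38), Esrrb (-0.99) and Klf5 (-0.97) were called lower, with edgeR adjusted p between 0.0112 and 0.0345. Among 5 tested early differentiation genes 0 were called by edgeR or DESeq2 and 1 had an unadjusted p under 0.05 (median -0.14). The de novo methyltransferase Dnmt3a was at 322, 304 and 172 CPM against 123 to 205, and was called higher without clone 38 (0.89, edgeR adjusted p = 0.0275). Of the 5 genes it was the 1 with a positive difference, both in all 9 clones and without clone 38. Without that clone the list median was -0.42 and the lowest difference -1.21. In bulk RNA, fewer cells of a type and less RNA per cell cannot be told apart.

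Sterol synthesis had the highest median of the lists not chosen for their chromosome that had over 2 tested genes, 0.44 over 17 genes with 14 positive, against 0.019 over all genes tested. Its 1 called gene was Msmo1, which lies on proximal chromosome 8. Of the others, the mevalonate enzyme Mvd, on distal chromosome 8, was at 374, 217 and 159 CPM against 89.2 to 157 (0.96 ± 0.26, edgeR adjusted p = 0.103), and Lss, lanosterol synthase, at 255, 142 and 85.9 CPM against 68.7 to 126 (0.77 ± 0.31). The 3 trisomy 8 clones fell in the same order for Msmo1, Mvd and Lss, with clone 228 highest and clone 38 lowest. Without clone 38, 5 of 19 tested sterol genes were called higher, Msmo1, Mvd, Lss, Sc5d and Fdps. In that fit 4.97% of all genes tested were called higher.

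Stress and growth lists had 0 genes called by edgeR in all 9 clones. The median was -0.060 over 15 p53 targets, 0.16 over 18 chaperones, -0.080 over 12 genes of the unfolded protein and integrated stress responses, 0.21 over 28 proteasome genes (21 positive), 0.26 over 2 interferon response genes and 0.030 over 13 cell cycle regulators. In the order given, 2, 4, 3, 5, 0 and 3 genes had an unadjusted p under 0.05, against 895 of all 5040 genes tested. DESeq2 called 1 chaperone higher and 0 genes in the other 5 lists. Cyclin D1, Ccnd1, was at 66.2, 108 and 59.2 CPM against 100 to 231. Without clone 38, where 4.97% of all genes tested were called higher and 2.86% lower, 3 of 18 chaperones were called higher and 1 lower. The higher ones were Hsp90aa1 (0.74), Dnajb1 (0.60) and Tcp1 (0.39), and the lower one Bag3 (-0.67). Of the unfolded protein and integrated stress responses, Hsp90b1 (1.18) and Hspa5 (0.69) were called higher in that fit and Trib3 (-1.40), Sesn2 (-1.19) and Asns (-1.12) lower. The same fit called 3 of 28 proteasome genes higher, Psmc6 (0.56), Psmb7 (0.46) and Psma1 (0.44). Of the 13 cell cycle genes it called E2f1 (0.55) higher and Ccnd3 (-0.45) lower. Sesn2 is also on the p53 list. Partners of complexes that have a subunit in a region were followed too. The median was -0.045 over 9 partners of Ash2l, 0.081 over 9 NuRD partners of Gatad2a, -0.099 over 7 CCR4-NOT partners of Cnot7 and -0.14 over 7 cohesin partners of Smc1a and Mau2, with 0 called by edgeR in all 9 clones. In the order given, 2, 1, 0 and 1 had an unadjusted p under 0.05, and DESeq2 called 1 partner of Ash2l lower. Without clone 38, Wdr5, of the Ash2l partners, was called lower (-0.63) and Esco2, of the cohesin partners, higher (0.50). In all 9 clones edgeR and DESeq2 called none among 4 fibroblast and feeder markers (-0.20), 12 distal chromosome 8 comparators (-0.018), or the single tested genes of the MAPK feedback (Etv5, -0.38) and 2-cell-like lists (Eif1a, -0.24). At an unadjusted p under 0.05 there was 1, a distal chromosome 8 comparator, and without clone 38 edgeR called Mt2 (-0.83) and Cdh1 (-0.63) of the comparators lower.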

How the data were processed

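The authors aligned single reads with TopHat2 2.0.6 to 129/Sv and Cast/Ei genomes built on mm10, kept unique best alignments, counted alleles at polymorphisms with SAMtools and genes with HTSeq 0.6.1 (tool versions from the submitters' processing notes). Per library they deposited raw counts of Cast, 129 and HTSeq reads and the Cast/all fraction. Replicates were not pooled, the labels do not say whether they were separate cultures, and the strand setting of the counting is not given in the sources used here. HTSeq counts of the 2 libraries of a clone were summed, and library sizes were taken over autosomes other than 8, 12 and 19 with TMM (prior count 1). Genes were placed by RefSeq on GRCm38. edgeR 4.0.16 (quasi-likelihood, Benjamini-Hochberg) was the main test, and DESeq2 1.42.0 and limma 3.58.1 in R 4.3.3 were alternatives. Standard errors of genes are the log2 difference over the root of F. Clone labels were permuted exactly (84 assignments, two-sided). The procedure was tested on simulated data. The clones, boundaries and 25 gene lists were chosen with earlier results of these data known. Named genes were the 5 highest called and 5 lowest tested of each region, the 3 nearest to a boundary on each side, up to 4 called members of each list, and, outside, the 10 largest of each direction without overlap and with at least 50 reads. The paper's methods state no test for total reads. Clone 292 was not used. Depth (2284822 to 8518122 reads per library) limits genes of low expression, and genes that are not listed were not taken as 0. The values of 1 gene of a list are not reported here.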

Additional observations from a re-analysis of the deposited data

Results flagged for a closer look

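Among the 6 translocation clones, 67 values were examined for 1 clone far from the others, and chance alone would pick out about 1 in 20. For distal chromosome 8, clone 109 was at 0.11 (log2, against the mean of the 6) and the others at -0.043 to 0.0055. Dlc1 was at 67.9 CPM in clone 85 and 112 to 143 in the other 5. Lpl was at 42.4 CPM in clone 109 and 98.5 to 161 in the others, and Gnl3l at 183 CPM in clone 109 and 260 to 321. Gatsl3 was at 23.4 CPM in clone 203b and 29.9 to 33.7 in the others, and Thumpd3 at 100 CPM in clone 85 and 118 to 129.

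In data outside the comparison, clone 160, placed in neither side, had a distal X at a log2 value of -0.31 against the translocation clones, with a Cast/all ratio of 1.00 in both untreated libraries and ratios of 0.518 and 0.512 on proximal chromosome 8. Its proximal X was at -0.32. Clone 87 had distal chromosome 8 at -0.59 against the translocation clones, with ratios of 0.495 and 0.489.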

How the results depend on the processing

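Dosage of proximal chromosome 8 and the distal X kept its direction under every alternative run. With only the 2 clones whose transgene lies on the translocation product as comparators, the smallest exact permutation p is 0.1 and the differences were 0.4768 for proximal chromosome 8, 0.9875 for the distal X and 0.1679 for the Cast/all ratio of proximal chromosome 8. Regions near no difference changed sign. Chromosome 12 was at 0.1069 and the proximal X at 0.1601 from the summed reads of the region. Without TMM, chromosome 12 was at -0.1247 (exact permutation p = 0.0357) and distal chromosome 8 at -0.0777. Treated libraries gave 0.1653 for the proximal X. Leaving out the 3 libraries with many HTSeq reads per allele-specific read gave 0.01 for chromosome 12, and leaving out clones 38 and 109 gave 0.02261, -0.01346 and 0.01421 for chromosome 12, distal chromosome 8 and the proximal X. These last 2 alternatives were chosen after seeing the data.

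Gene counts moved more, and the cause was not tested. Called higher on proximal chromosome 8, higher outside and lower outside were 51, 82 and 97 genes with DESeq2, 59, 329 and 263 without clones 38 and 109, and 11, 6 and 9 without the 3 libraries. limma called 8 higher and 23 lower outside. Without TMM, 10 genes on proximal chromosome 8 and 7 higher outside were called, and with clone 267 35 higher and 35 lower outside. Treated libraries gave 39 on proximal chromosome 8 and 23 lower outside. Against the clones with the transgene on the X alone, 1, 1 and 0 were called, with 11 on the distal X, and against the other 2 clones 0, 0 and 0, with 0 on the distal X. In single genes, Ptrf (-0.6682), Nkain1 (0.155) and Spp1 (0.1629) changed sign in treated libraries.

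Replicate numbers did not pair the libraries. Over 36 pairs of clones, replicate differences correlated from -0.599 to 0.765. Fitting 18 libraries with a replicate block called 80, 178 and 162 genes, and 80, 214 and 173 without the block. Such fits count 2 libraries of a clone as independent.

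With 1 clone or 1 library left out at a time, the dosage difference ranged from 0.4752 to 0.5073 for proximal and from -0.02699 to 0.04691 for distal chromosome 8, from 0.9341 to 1.052 for the distal X, from -0.117 to 0.04001 for the proximal X and from -0.06048 to 0.04293 for chromosome 12. The ratio difference on proximal chromosome 8 ranged from 0.1659 to 0.1709. Called genes ranged from 5 to 43 on proximal chromosome 8, 18 to 24 on the distal X, and 3 to 161 higher and 1 to 123 lower outside. Depth limits which list members were listed in all libraries and could be tested.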
